A study of Mus musculus with 10 samples.

Results

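The zinc finger genes described here are the 86 genes of mouse chromosome 7 whose symbol is Zfp followed by a number, among 19938 genes measured in pancreatic islets of 2 inbred strains. They were taken by name and map position, each from the probe set that carried its symbol and no other, and from the probe set with the highest mean signal where a gene had more than 1. The gene table holds 94 such genes on this chromosome, and the other 8 had no probe set of their own. The islets came from NZO/Hl mice (5 arrays), an obese strain prone to diabetes, and from C3HeB/FeJ mice (5 arrays, called C3H here). All were males aged 6 weeks that had eaten a fat-rich diet (45% of calories as fat) from day 21 on, and the isolated islets spent a night in medium with 10 mM glucose. The sample names list 2 animal numbers for 8 arrays, a single one for NZO replicate 4 and a run of numbers for NZO replicate 5. No number recurs between arrays, and whether RNA of the listed animals was pooled is not stated. The study searched a critical region of 30 to 46 Mb for variants specific to C3H. Of the 86 genes, 17 started inside it on chromosome 7 and 69 outside it, in the positions of the assembly GRCm38.p6. Neither the chromosome nor the build behind the 2 limits is given in the sources used here. Placing the region on chromosome 7 is part of the rule that defines this group.

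Most proteins named Zfp carry a row of C2H2 zinc fingers, short loops folded around a zinc ion, and each finger reads a few bases of DNA. Many of those on this chromosome also carry a KRAB domain, which recruits the co-repressor protein Trim28 and, through it, the histone methyltransferase Setdb1, so that chromatin at the bound site is silenced. KRAB zinc finger genes arose by repeated tandem duplication, lie in clusters of related copies, and are best known for silencing transposable elements and some imprinted or placental promoters. A few genes with the same kind of name do something else. Zfp36 (tristetraprolin) has fingers of another type and binds AU-rich messenger RNA to destabilise it.

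Values are log2 expression values from RMA, a method that corrects background, equalises the arrays and summarises the probes of a gene. A difference is NZO minus C3H from limma, fitted over all 19938 genes, and a gene passed at a Benjamini-Hochberg adjusted p below 0.05. An SE is that of the difference, and a mean ± SD is over 5 arrays. Single arrays stood apart, in that NZO replicates 4 and 5 had the highest signal of acinar cell genes and C3H replicate 4 the highest median over all probe sets, and fits without these arrays are given further on. Of the 86 genes, 12 were lower in NZO and 3 were higher, where 4.61% of all genes tested were lower and 5.47% higher. All 4 genes that passed inside the region (Zfp14, Zfp82, Zfp658 and Zfp719) were lower, while outside it 8 were lower and 3 higher. The changes were modest. The largest were Zfp607a, which fell by 0.92, and Zfp420, which rose by 0.82. No test over the list was made. The rule that picks the members uses no expression difference, but the members were chosen with earlier results of these data known.

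Promoter sequences of 6 members are shown, those of the 4 genes that passed inside the region and of a pair just outside its lower limit. They are windows of 300 bases from RefSeq (GRCm38.p6), from 250 bases before the start of the gene to 50 after it, written 5′ to 3′ along the gene. Windows were on hand for 78 of the 86 genes, 87 windows in all, and Zfp568 is among the other 8. Capitals mark matches on either strand to any of 5 motifs, CCGGAA (the core bound by ETS factors), CCAAT (the CCAAT box), GGGCGG (the GC box), TATAAA (the TATA box) and the NRF1 motif, which reads GCGC, AT and GCGC in a row, and no 2 of these matches overlap in the windows shown. The first 4 belong to the members that were lower inside the region, and the last 2 to neighbours outside it that start 6364 bases apart, on opposite strands, and differed in opposite directions.
Zfp14, chr7:30051347-30051646, minus strand: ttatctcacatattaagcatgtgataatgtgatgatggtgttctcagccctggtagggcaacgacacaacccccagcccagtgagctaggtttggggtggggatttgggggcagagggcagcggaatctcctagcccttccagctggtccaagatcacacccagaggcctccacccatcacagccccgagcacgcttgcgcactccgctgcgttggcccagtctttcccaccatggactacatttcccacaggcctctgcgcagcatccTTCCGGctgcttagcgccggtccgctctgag
Zfp82, chr7:30072774-30073073, minus strand: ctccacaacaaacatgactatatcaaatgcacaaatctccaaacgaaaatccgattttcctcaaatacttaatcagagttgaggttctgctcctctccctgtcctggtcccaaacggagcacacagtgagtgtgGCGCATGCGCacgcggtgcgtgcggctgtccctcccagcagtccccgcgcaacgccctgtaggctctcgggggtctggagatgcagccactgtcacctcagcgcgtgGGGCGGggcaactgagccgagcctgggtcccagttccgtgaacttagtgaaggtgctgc
Zfp658, chr7:43562120-43562419, plus strand: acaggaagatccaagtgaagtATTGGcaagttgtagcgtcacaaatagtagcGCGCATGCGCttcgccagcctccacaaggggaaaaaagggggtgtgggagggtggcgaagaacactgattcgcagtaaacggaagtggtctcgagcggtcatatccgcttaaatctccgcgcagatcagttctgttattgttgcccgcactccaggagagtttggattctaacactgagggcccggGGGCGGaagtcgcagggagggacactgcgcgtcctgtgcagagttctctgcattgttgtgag
Zfp719, chr7:43579336-43579635, plus strand: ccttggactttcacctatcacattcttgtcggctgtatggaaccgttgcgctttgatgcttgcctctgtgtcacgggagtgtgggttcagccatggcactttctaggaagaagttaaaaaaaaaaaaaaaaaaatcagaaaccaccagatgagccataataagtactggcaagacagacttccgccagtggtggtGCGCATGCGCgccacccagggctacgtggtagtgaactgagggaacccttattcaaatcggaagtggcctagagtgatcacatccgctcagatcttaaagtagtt
Zfp940, chr7:29853599-29853898, minus strand: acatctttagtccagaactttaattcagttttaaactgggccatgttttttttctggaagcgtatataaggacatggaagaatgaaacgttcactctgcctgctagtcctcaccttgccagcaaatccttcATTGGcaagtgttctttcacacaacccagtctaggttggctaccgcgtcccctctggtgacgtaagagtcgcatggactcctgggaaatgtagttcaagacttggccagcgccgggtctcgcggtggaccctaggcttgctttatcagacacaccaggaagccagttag
Zfp420, chr7:29859762-29860061, plus strand: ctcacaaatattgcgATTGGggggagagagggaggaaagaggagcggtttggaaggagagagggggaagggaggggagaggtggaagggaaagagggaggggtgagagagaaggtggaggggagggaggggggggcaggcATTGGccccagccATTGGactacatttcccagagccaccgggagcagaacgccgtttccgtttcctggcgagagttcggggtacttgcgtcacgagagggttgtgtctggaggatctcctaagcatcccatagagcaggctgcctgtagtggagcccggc

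The NRF1 motif stood in the windows of Zfp82, Zfp658 and Zfp719, and the Zfp14 window held the ETS core instead. Among the 21 windows of members inside the region, 4 held the NRF1 motif, the fourth being that of Zfp141. It stood in 2 of 66 windows of members outside the region (3.03%) and in 1.33% of 21263 windows of protein-coding genes. The 2 outside were those of Zfp329 (difference -0.14) and Zfp30 (0.28). Zfp141 (-0.20), Zfp329 and Zfp30 did not pass. The ETS core stood in 32.2% of the members' windows and in 18.7% of those of protein-coding genes, the CCAAT box in 40.2% and 38.2%, the GC box in 41.4% and 46.2%, and the TATA box in 6.90% and 12.6%. The Zfp420 window held 3 CCAAT boxes and the Zfp940 window 1, all written as ATTGG on the strand shown. These matches are a description of the letters and were not tested.

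Inside the region, Zfp719 had the largest difference. It measured 9.68, 9.37, 9.37, 9.52 and 9.15 on the NZO arrays, against 9.82, 9.99, 9.91, 9.70 and 9.82 on the C3H arrays. The 2 strains did not overlap, although NZO replicate 1 came close to the lowest C3H array. Zfp719 was 1.35-fold lower in NZO (-0.43, SE 0.10, limma adjusted p = 0.011), and it passed with any 1 array left out.

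Zfp658, its neighbour on the chromosome, measured 7.54, 7.30, 7.15, 7.25 and 6.99 on the NZO arrays, against 7.60, 7.60, 7.44, 7.57 and 7.65 on the C3H arrays. Here the strains overlapped, because NZO replicate 1 lay above the lowest C3H array. The difference was -0.32 (SE 0.10, limma adjusted p = 0.0453). It lost its call without any one of C3H replicates 1, 2, 3 and 5 and of NZO replicates 3, 4 and 5 (highest limma adjusted p 0.125).

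Zfp14 measured 7.31, 7.43, 7.19, 7.31 and 7.23 on the NZO arrays, against 7.49, 7.76, 7.56, 7.59 and 7.52 on the C3H arrays. All NZO arrays lay below all C3H arrays. The gene was 1.22-fold lower (-0.29, SE 0.08, limma adjusted p = 0.0277), and the call was lost on leaving out C3H replicate 2, C3H replicate 3, NZO replicate 3, NZO replicate 4 or NZO replicate 5 (highest limma adjusted p 0.0809). Zfp82, the next member, was dim, at 5.76, 5.65, 5.78, 5.52 and 5.52 in NZO and 6.11, 6.03, 6.06, 5.74 and 5.91 in C3H. C3H replicate 4 fell within the NZO range. The difference was -0.32 (SE 0.09, limma adjusted p = 0.0326), and its call was lost on leaving out any C3H replicate but the fourth, NZO replicate 4 or NZO replicate 5 (highest limma adjusted p 0.0991). Its NZO mean lay below the highest 25th percentile of an array (5.65 to 5.85 over the arrays), so it was not shown to be above background and no fold is given.

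**Figure D1:**
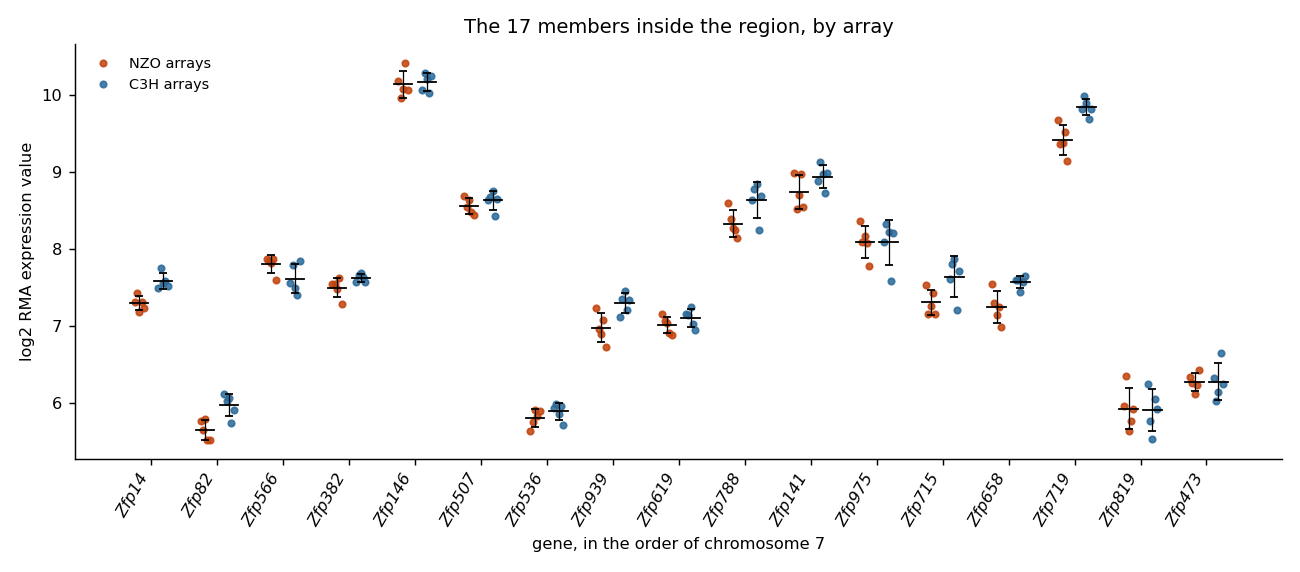
Log2 RMA expression values of the 17 members inside the 30 to 46 Mb region, in chromosome order on the horizontal axis, with 1 point per array, NZO left of C3H (5 arrays each). Lines are means and bars SDs. Zfp14 and Zfp719 are the 2 genes whose strains do not overlap.

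The other 13 members inside the region did not pass. Of these, 10 had a difference below 0 and 3 above it. The largest were Zfp715 (-0.34, limma adjusted p = 0.107), Zfp939 (-0.32, limma adjusted p = 0.0575), Zfp788 (-0.31, limma adjusted p = 0.117) and Zfp141 (-0.20, limma adjusted p = 0.331). Zfp715, Zfp939 and Zfp788 passed without C3H replicate 4 (limma adjusted p = 0.00729, 0.0465 and 0.0117). Zfp788 has 2 probe sets with identical values, and the second probe set of Zfp141 gave -0.22.

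Inside the region Zfp566 had the largest positive difference, at 7.80 ± 0.12 in NZO and 7.62 ± 0.19 in C3H (0.18, 95% interval -0.03 to 0.39). Zfp382 differed by -0.13 (-0.29 to 0.03), Zfp619 by -0.09 (-0.27 to 0.08) and Zfp507 by -0.07 (-0.24 to 0.10). Zfp146, whose protein consists almost wholly of fingers, had values of 10.14 ± 0.18 in NZO and 10.17 ± 0.12 in C3H, a difference of -0.02 (-0.23 to 0.18). Zfp473, which in human cells takes part in the processing of histone messenger RNA, differed by 0.00 (-0.23 to 0.23) and Zfp975 by 0.01 (-0.28 to 0.30). Zfp819 (0.02) and Zfp536 (-0.09), a repressor of neuronal differentiation, were dim in both strains, and the NZO mean of Zfp536 (5.80) lay within the range of the arrays' 25th percentiles.

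None of the 17 genes inside the region was higher in NZO by limma, also at an unadjusted p below 0.05, where 7 were lower. At that limit 10.5% of all genes were lower and 11.3% higher. The median difference of the 17 was -0.13, beside -0.02 for all genes and -0.03 for the 69 members outside. It was -0.09 for Zfp genes on other chromosomes. Groups outside differed among themselves, and the 8 members from Zfp607b to Zfp36 had a median of -0.26. The mean log2 value over the 17 was 7.67, 7.54, 7.50, 7.56 and 7.40 on the NZO arrays, against 7.70, 7.77, 7.72, 7.57 and 7.71 on the C3H arrays. NZO replicate 1 was the highest NZO array and C3H replicate 4 the lowest C3H array on this measure. The number of genes lower inside the region moved with single arrays. It was 7 without C3H replicate 4, 5 without NZO replicate 1, 4 without NZO replicate 2, 2 without C3H replicate 1, C3H replicate 5 or NZO replicate 3, and 1 without C3H replicate 2, C3H replicate 3, NZO replicate 4 or NZO replicate 5. Over the same fits the share of all genes that were lower ran between 3.21% and 7.89%.

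The lower limit of the region cuts through a cluster of 13 members, from Zfp84 to Zfp146, of which 8 start outside and 5 inside. Zfp568 is the last member outside and Zfp14 the first inside. Of the 8 outside, 2 were lower and 1 higher, and of the 5 inside 2 were lower. The median difference was -0.27 for the 8 outside and -0.13 for the 5 inside. Zfp568, a KRAB protein that silences a placental transcript of Igf2 in mouse embryos, measured 8.90, 8.87, 8.98, 8.75 and 8.64 on the NZO arrays, against 9.10, 9.32, 9.45, 9.14 and 9.45 on the C3H arrays. The strains did not overlap, and the gene was 1.38-fold lower in NZO (-0.46, SE 0.09, limma adjusted p = 0.00542).

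Zfp420 and Zfp940 lie side by side in this cluster and differed in opposite directions. Zfp420 measured 8.16, 7.99, 7.96, 7.84 and 7.64 on the NZO arrays, against 6.93, 7.38, 7.29, 6.65 and 7.21 on the C3H arrays. All NZO arrays were above all C3H arrays, and the gene was 1.77-fold higher (0.82, SE 0.13, limma adjusted p = 0.00106). Zfp940 measured 6.71, 6.77, 6.66, 6.88 and 6.64 on the NZO arrays, against 7.19, 7.31, 7.43, 6.89 and 7.04 on the C3H arrays. All NZO arrays were below all C3H arrays, by a narrow margin for C3H replicate 4, and the gene was 1.36-fold lower (-0.44, SE 0.10, limma adjusted p = 0.0108). All 3 of Zfp568, Zfp420 and Zfp940 passed with any 1 array left out.

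The other 5 members of the cluster outside the region did not pass. Zfp74 differed by -0.33 (limma adjusted p = 0.0537), Zfp790 by -0.31 (limma adjusted p = 0.0725), Zfp84 by -0.24 (limma adjusted p = 0.102) and Zfp27 by -0.23 (limma adjusted p = 0.175). Without C3H replicate 4, Zfp74 (limma adjusted p = 0.0417), Zfp790 (0.00792) and Zfp84 (0.0373) passed. Zfp30, a KRAB gene linked to the neutrophil response of the mouse airway, went the other way, with 8.29 ± 0.13 in NZO and 8.02 ± 0.24 in C3H (0.28, limma adjusted p = 0.145).

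The limits of the region decide where these genes are counted. With the region widened to 29 to 47 Mb, all 13 genes of the cluster fell inside, and 6 members were lower and 1 higher inside it against 6 lower and 2 higher outside. With the region narrowed to 31 to 45 Mb, none of the cluster fell inside, and 2 members were lower inside it against 10 lower and 3 higher outside. Of all genes, 4.61% were lower and 5.47% higher. The number of members on each side is not given for the changed limits. These counts therefore do not show whether the share inside rose or fell.

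**Figure D2:**
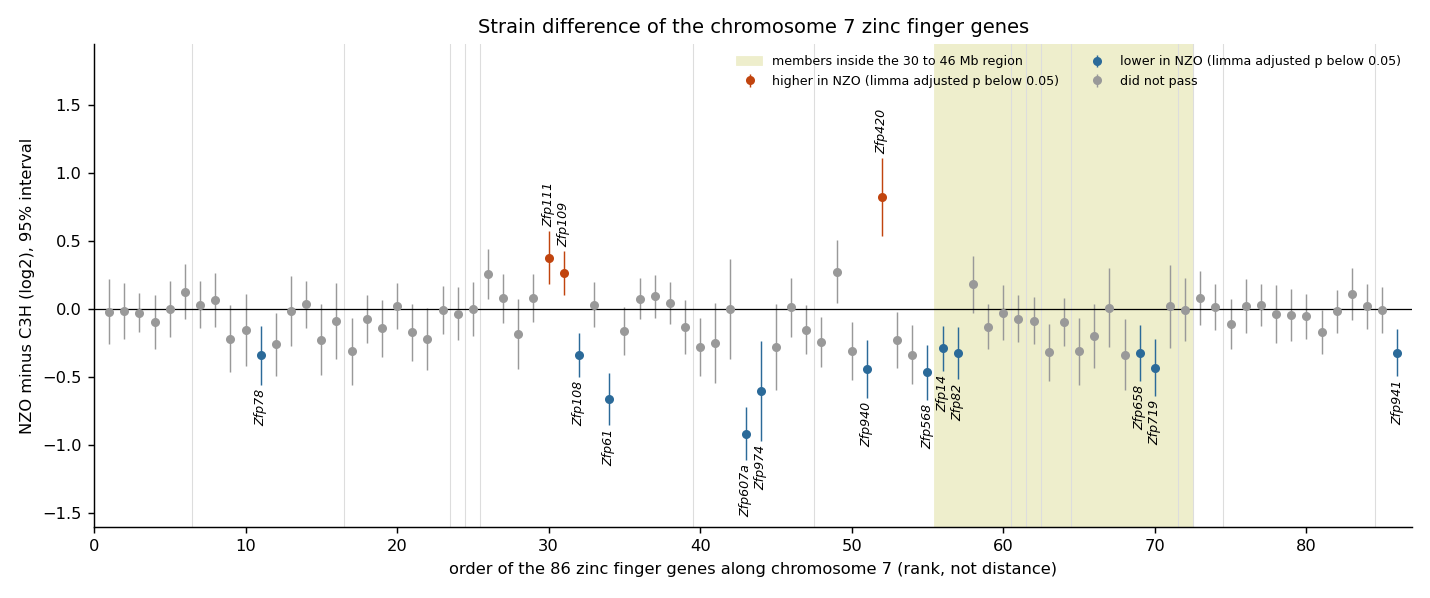
NZO minus C3H difference (log2) of the 86 zinc finger genes with its 95% interval, against their rank along chromosome 7. Orange points were higher and blue points lower in NZO, grey points did not pass, the shaded band holds the 17 members inside the region, and thin lines part groups of members whose starts lie over 1 Mb apart. The points past the threshold other than Zfp78 and Zfp941 lie from Zfp111 to Zfp719, a long span that also holds many points that did not pass.

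Upstream of that cluster lies a group of 8 members, from Zfp607b to Zfp36, with the largest fall of all. Zfp607a measured 5.62, 5.81, 5.81, 6.01 and 5.74 on the NZO arrays, against 6.69, 6.80, 6.86, 6.49 and 6.72 on the C3H arrays. The strains were separated by a gap wider than the spread of either one. The difference was -0.92 (SE 0.09, limma adjusted p = 1.46e-05), with no fold given because the NZO mean of 5.80 lay below the highest 25th percentile of an array. Zfp974, the next member along the chromosome, measured 6.89, 6.57, 6.60, 6.65 and 6.59 on the NZO arrays, against 7.16, 7.56, 7.63, 6.51 and 7.44 on the C3H arrays. C3H replicate 4 was the lowest of all 10 arrays, and the other C3H arrays were all above the NZO arrays. The gene was 1.52-fold lower (-0.60, SE 0.17, limma adjusted p = 0.0384), or -0.79 without C3H replicate 4 (limma adjusted p = 0.000332). It passed without C3H replicate 4 or NZO replicate 1 and did not pass when any other array was left out (highest limma adjusted p 0.107).

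The remaining members of this group were Zfp607b (-0.28), Zfp780b (-0.28), Zfp60 (-0.25), Zfp36 (-0.15), Zfp850 (0.01) and Zfp626 (0.00), and none of them passed. Zfp626 had a wide interval (-0.36 to 0.37). Zfp60 has a second, dim probe set with a difference of -0.07. Zfp780b passed without C3H replicate 4 (-0.42, limma adjusted p = 0.0233).

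A further group of 14 members, from Zfp180 to Zfp526, held differences in both directions between adjacent genes. Zfp61 measured 7.40, 7.29, 7.20, 7.09 and 7.13 on the NZO arrays, against 7.88, 7.99, 7.96, 7.64 and 7.94 on the C3H arrays. All NZO arrays were below all C3H arrays, and the gene was 1.58-fold lower (-0.66, SE 0.09, limma adjusted p = 0.00022). Zfp108 measured 7.32, 7.34, 7.18, 7.18 and 7.27 on the NZO arrays, against 7.63, 7.50, 7.60, 7.74 and 7.51 on the C3H arrays. It too did not overlap and was 1.26-fold lower (-0.34, SE 0.07, limma adjusted p = 0.00902).

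Zfp111 measured 8.14, 8.18, 8.11, 8.35 and 8.20 on the NZO arrays, against 7.76, 7.96, 7.78, 7.57 and 8.01 on the C3H arrays. All NZO arrays were higher, by 1.30-fold on average (0.38, SE 0.09, limma adjusted p = 0.0146). Zfp109, which lies between Zfp111 and Zfp108, measured 7.96, 7.85, 7.67, 7.82 and 7.80 on the NZO arrays, against 7.58, 7.59, 7.47, 7.50 and 7.65 on the C3H arrays. The strains were separated by a narrow margin, with a 1.20-fold higher level in NZO (0.26, SE 0.08, limma adjusted p = 0.038). Zfp61, Zfp108 and Zfp111 passed with any 1 array left out. Zfp109 passed without C3H replicate 4 or NZO replicate 3 and lost its call without any other single array (highest limma adjusted p 0.103).

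Of the 10 other members of this group, Zfp180 had the largest difference (0.26, limma adjusted p = 0.0715), and the rest lay between Zfp235 (-0.18) and Zfp575 (0.09). Zfp114 measured 4.96 ± 0.06 in NZO and 4.88 ± 0.14 in C3H, below the 25th percentile of every array. Zfp108, Zfp109, Zfp111, Zfp607a and Zfp974 are also named together with relatives in probe sets that carry several symbols. There were 13 probe sets of that kind for zinc finger genes of the chromosome, and they name 16 of the 86 members. How far related copies share signal in the probe sets used here was not tested.

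**Figure D3:**
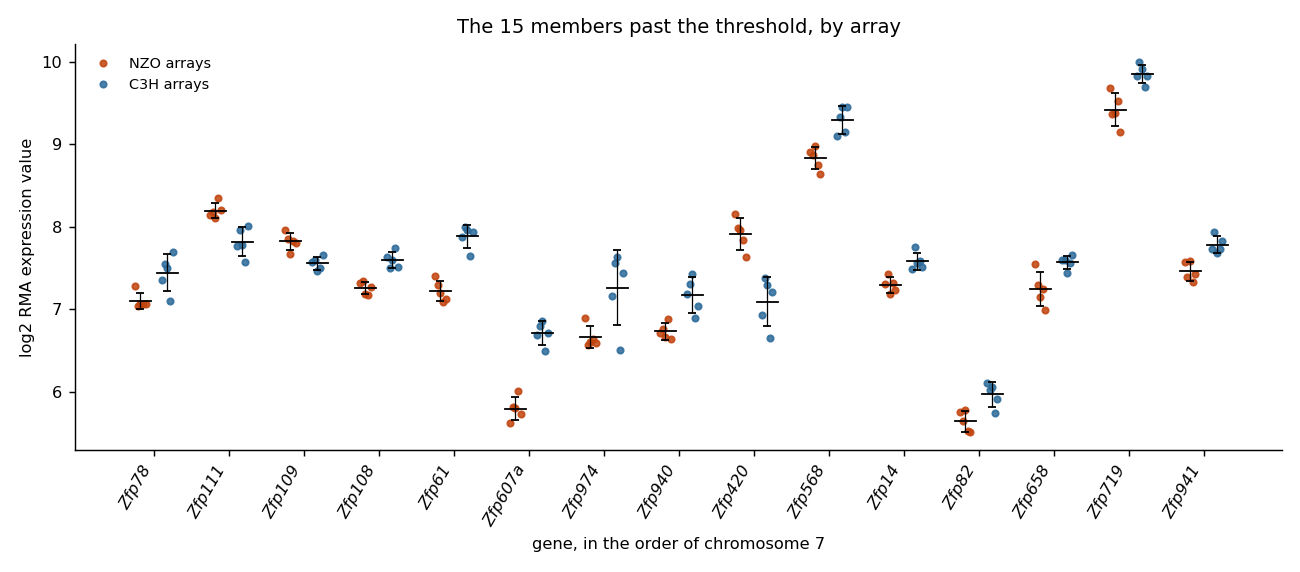
Log2 RMA expression values of the 15 zinc finger genes past the threshold, in chromosome order on the horizontal axis, with 1 point per array, NZO left of C3H (5 arrays each). Lines are means and bars SDs. NZO lies above C3H in Zfp111, Zfp109 and Zfp420 and below it in the other 12, where the arrays of Zfp78, Zfp974, Zfp82 and Zfp658 overlap.

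The remaining members outside the region lie towards both ends of the chromosome, and 2 of them passed, both lower. Zfp78 measured 7.28, 7.04, 7.07, 7.07 and 7.07 on the NZO arrays, against 7.36, 7.55, 7.50, 7.11 and 7.70 on the C3H arrays. NZO replicate 1 lay above C3H replicate 4, so the strains overlapped. The gene was 1.27-fold lower (-0.34, SE 0.10, limma adjusted p = 0.0495). It passed without C3H replicate 4 (limma adjusted p = 0.00413) or NZO replicate 1 and did not pass when any other array was left out (highest limma adjusted p 0.134). Zfp941, at the far end, measured 7.57, 7.39, 7.59, 7.33 and 7.42 on the NZO arrays, against 7.72, 7.94, 7.68, 7.74 and 7.83 on the C3H arrays. The strains did not overlap, and it was 1.25-fold lower (-0.32, SE 0.08, limma adjusted p = 0.0191). Its call was lost on leaving out C3H replicate 2, C3H replicate 5, NZO replicate 4 or NZO replicate 5 (highest limma adjusted p 0.0583).

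Near the start of the chromosome, a group of 6 members from Zfp628, which is needed for sperm formation in mice, to Zfp580 lay between -0.09 (Zfp865) and 0.13 (Zfp580). The next 10, from Zfp787 to Zfp772, hold Zfp78, and beside it Zfp28 (-0.26), Zfp418 (-0.22) and Zfp667 (-0.22) did not pass. Then came 7 members from Zfp551 (-0.31, limma adjusted p = 0.113) to Zfp446 (-0.01), among them Zfp110, which binds a neurotrophin receptor, at 8.95 in NZO and 8.92 in C3H (95% interval of the difference -0.15 to 0.19). Zfp28, Zfp667 and Zfp551 passed without C3H replicate 4 (limma adjusted p = 0.0174, 0.0204 and 0.0488). Zfp541, a gene of male meiosis, and Zfp296, known from pluripotent cells, each stood alone at -0.03 and 0.00.

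Past the region, Zfp710 (0.08) and Zfp592 (0.01) did not pass. A group of 10 genes from Zfp553 to Zfp646 lay between -0.17 (Zfp689, limma adjusted p = 0.206) and 0.11 (Zfp668), none of which passed. The widest 95% interval among these 10 was that of Zfp747 (-0.25 to 0.18). Zfp511 differed by 0.00 (-0.17 to 0.16). Outside the region as a whole, 58 members did not pass, and 33 of them differed by less than 0.1 in either direction.

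The number of members lower outside the region was 15 without C3H replicate 4, 11 without NZO replicate 1, and 5 without C3H replicate 2, C3H replicate 5, NZO replicate 4 or NZO replicate 5. C3H replicate 4 gave the lowest of the 5 C3H values in 54 of the 86 members and in 7 of the 12 that were lower in NZO. It was also the array with the highest median over all probe sets, at 7.05, where the other 9 lay between 6.93 and 6.99. Its 25th percentile over all probe sets was the highest of the arrays (5.85) and its 75th percentile the lowest. The middle of its values was thus narrower than on any other array, over all probe sets and not only the members. Without C3H replicate 4, 7.89% of all genes were lower in NZO and 5.65% higher. NZO replicate 1 gave the highest NZO value in 40 of the 86 members. The share of all genes for which either array was the extreme one is not given. These counts therefore have no base and are not shown to be particular to the members.

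Other gene groups give the setting for these shares. Inside the region 4 of the 17 members were lower (23.5%), and outside it 8 of the 69 were lower (11.6%) and 3 higher (4.35%). Of the other 238 genes of the region, 15 were lower in NZO (6.30%) and 13 higher (5.46%). Of the other 1410 genes of the chromosome outside it, 52 were lower (3.69%) and 88 higher (6.24%). The 260 genes with a Zfp name and number on other chromosomes had 18 lower (6.92%) and 9 higher (3.46%), with a median difference of -0.09, beside -0.07 for the 86 members. Of the 86, 57 had a difference below 0 (66.3%), as did 73.1% of the Zfp genes elsewhere and 55.2% of all genes. All NZO arrays lay below all C3H arrays in 8 of the 86 members, where the share over all genes was 4.18%. They lay above them in 3 of the 86, where the share over all genes was 4.96%. These differences between gene groups were not tested. The groups also differed in brightness. The median log2 level was 7.47 for the members inside, 7.81 for those outside and 7.96 for the Zfp genes elsewhere. It was 7.16 for the other genes of the region, 6.98 for the others of the chromosome and 7.50 for all genes. Of genes at or above the 25th percentile of brightness 6.29% were lower, and of those at or above the median 8.08%. The part of brightness in these shares was not tested.

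**Figure D4:**
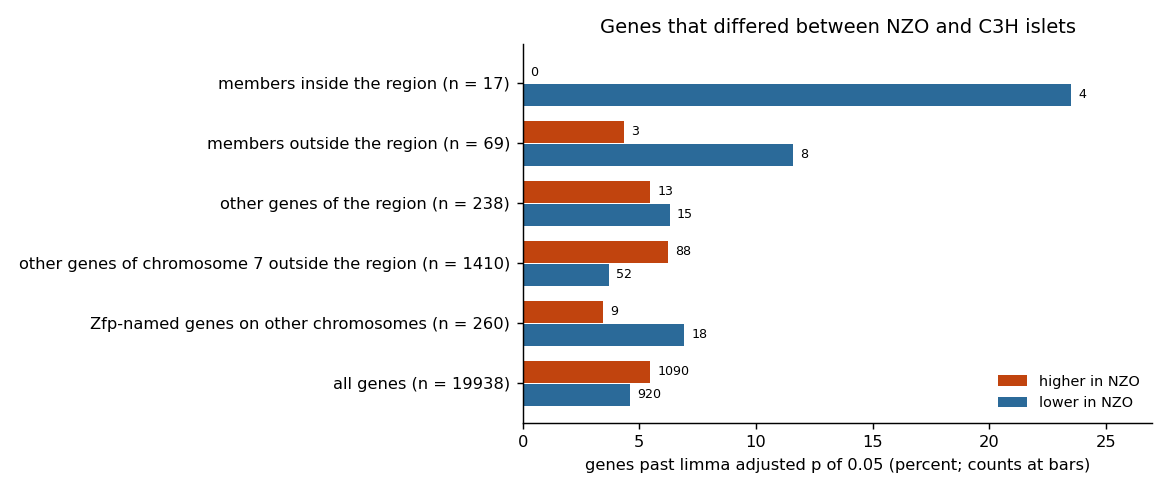
Share of genes that passed limma's adjusted p of 0.05, higher or lower in NZO, in 6 groups of genes, with the number of genes at each bar. Among the 17 members inside the region 4 were lower and none higher, and among all 19938 genes 920 were lower and 1090 higher.

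Genes of the machinery that KRAB proteins recruit passed about as often as genes at large. Of 37 listed genes of the co-repressor complex and its histone and DNA modifiers, 32 were measured, 2 were higher and 1 lower in NZO, where 10.1% of all genes passed in either direction, and the median difference was 0.00. Trim28 was 9.69 ± 0.13 in NZO and 9.61 ± 0.13 in C3H (0.08, limma adjusted p = 0.714), and Setdb1 was 8.19 ± 0.04 in NZO and 8.24 ± 0.14 in C3H (-0.05, limma adjusted p = 0.832). Ehmt2, a histone H3 lysine methyltransferase, was 9.59 ± 0.09 in NZO and 9.29 ± 0.09 in C3H, and rose by 0.29 (SE 0.07, limma adjusted p = 0.0219). Uhrf1, which guides the maintenance of DNA methylation, was 6.68 ± 0.20 in NZO and 6.30 ± 0.15 in C3H, and rose by 0.38 (SE 0.11, limma adjusted p = 0.0326). Suv39h2, a methyltransferase of heterochromatin, was 6.25 ± 0.20 in NZO and 6.77 ± 0.29 in C3H, and fell by 0.53 (SE 0.13, limma adjusted p = 0.0212). None of the 3 passed without NZO replicates 4 and 5 or with the acinar score described next as a covariate. Ehmt2 stood at 0.28 in both of these fits and Suv39h2 at -0.52 and -0.53, close to their values over all arrays, while Uhrf1 stood at 0.26 and 0.07.

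The samples also differed in markers of other cell types. Islet hormone genes were bright in both strains, for example Ins2 at 12.45 ± 0.15 in NZO and 12.33 ± 0.07 in C3H. Of 26 measured markers of acinar cells, the enzyme-secreting cells around the islets, 24 were higher in NZO. Their mean log2 value, the acinar score, was 9.60 to 11.5 on the NZO arrays, with 11.5 and 11.4 on NZO replicates 4 and 5, and 7.94 to 8.76 on the C3H arrays. Macrophage markers were higher in 6 of 12 (array means of 7.70 to 8.86 in NZO and 7.60 to 7.76 in C3H), duct markers in 3 of 6 (8.82 to 9.81 in NZO and 8.43 to 8.60 in C3H), stellate cell markers in 2 of 9 (7.96 to 9.32 in NZO and 8.09 to 8.38 in C3H) and endothelial markers in 1 of 9 (9.13 to 9.51 in NZO and 9.07 to 9.39 in C3H). Delta and PP cell markers were lower in 3 of 5 (11.3 to 11.6 in NZO and 11.9 to 12.1 in C3H), beta cell markers in 3 of 9 (10.4 to 11.3 in NZO and 11.2 to 11.4 in C3H) and Schwann cell markers in 1 of 4. Of 3 alpha cell and 7 lymphocyte markers none passed by limma. At an unadjusted p below 0.05, 8 macrophage, 5 duct, 6 stellate, 5 endothelial and 1 lymphocyte markers were higher, and 6 beta, 4 delta and PP, 2 Schwann and 1 alpha cell markers lower. All 9 endothelial differences were above 0, with a median of 0.24. In such bulk samples, fewer cells of a type and less RNA per cell cannot be told apart. The part of other cell types in the members' differences was not tested. The acinar score was higher on every NZO array than on every C3H array, also without NZO replicates 4 and 5. The fits given next therefore cannot separate strain from acinar content, and no cause is read from the calls lost in them.

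With the acinar score entered beside strain in the fit, 2 of the 86 members passed, Zfp420 and Zfp607a. Zfp420 then stood at 1.25 (SE 0.26, limma adjusted p = 0.0303) and Zfp607a at -1.08 (SE 0.19, limma adjusted p = 0.0116). In that fit, 0.466% of all genes were lower and 0.577% higher. The SEs of the 15 members ran between 0.16 and 0.36 in that fit, against 0.07 to 0.17 without the covariate. Inside the region the differences were -0.26 for Zfp719 (SE 0.21), -0.16 for Zfp82 (SE 0.19), -0.15 for Zfp14 (SE 0.17) and -0.03 for Zfp658 (SE 0.19), all within 2 SEs of 0. Outside it, Zfp61 (-0.41, SE 0.18), Zfp940 (-0.53, SE 0.21) and Zfp109 (0.34, SE 0.17) were more than 2 SEs from 0. Only 1 member outside, Zfp420, was higher at an unadjusted p below 0.05 by limma, so Zfp109 did not reach that limit. Zfp974 (-0.48, SE 0.36), Zfp111 (0.30, SE 0.20), Zfp108 (-0.27, SE 0.16), Zfp78 (-0.21, SE 0.22), Zfp568 (-0.16, SE 0.18) and Zfp941 (-0.12, SE 0.17) were within 2 SEs of 0.

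Leaving out NZO replicates 4 and 5, the 2 arrays with the highest acinar score, left 4 members past the threshold. They were Zfp420 (0.94, limma adjusted p = 0.00149), Zfp607a (-0.97, limma adjusted p = 6.4e-05), Zfp61 (-0.59, limma adjusted p = 0.00336) and Zfp940 (-0.46, limma adjusted p = 0.0379), where 2.47% of all genes were lower and 3.07% higher. None of the members inside the region passed in that fit, and 6 of them were lower at an unadjusted p below 0.05. The share of all genes lower at that unadjusted limit in this fit is not given, so the count of 6 has no base. Zfp719 was -0.37 (limma adjusted p = 0.0571), Zfp14 -0.27 (0.154), Zfp82 -0.24 (0.276) and Zfp658 -0.24 (0.289). Outside the region the calls of Zfp568 (-0.37, limma adjusted p = 0.0595), Zfp108 (-0.31, 0.0729), Zfp111 (0.33, 0.117), Zfp109 (0.27, 0.157), Zfp941 (-0.26, 0.168), Zfp974 (-0.57, 0.169) and Zfp78 (-0.32, 0.234) were lost. Of these, Zfp108, Zfp109, Zfp974 and Zfp78 lay within 0.03 of their differences over all arrays.

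**Figure D5:**
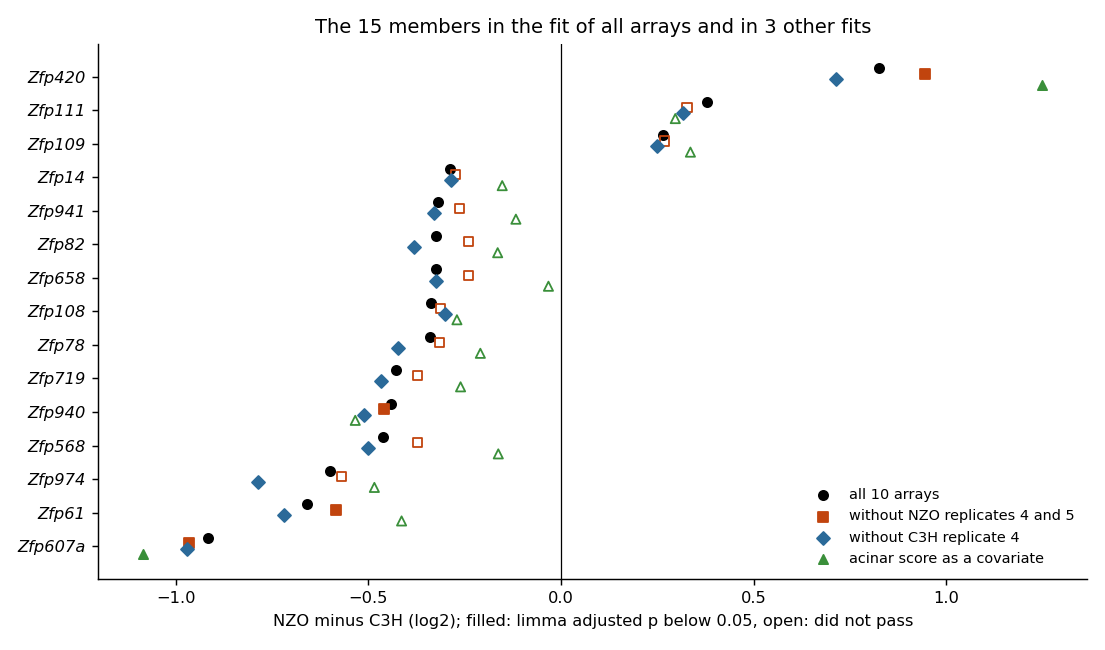
NZO minus C3H difference (log2, horizontal axis) of the 15 members past the threshold, one gene per line, in the fit of all 10 arrays and in 3 other fits. Filled symbols passed limma's adjusted p of 0.05 and open symbols did not. Zfp420 and Zfp607a are filled in all 4 fits, and the open triangle of Zfp658 lies nearest to 0.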

How the data were processed

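Total RNA of the islets was amplified, biotin-labelled and hybridised to a whole-transcript mouse array from Affymetrix, following the protocols in the labels. The authors' deposited file holds log2 values, 1 per probe set and array, computed by RMA in Affymetrix Expression Console, as their processing notes and descriptions state. Its version and the genome build are not known here. RMA gives no detection call and narrows differences of dim probe sets.

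Of 35556 probe sets, 21789 carried exactly 1 gene symbol, 1621 several and 12146 none. Of the first, 21698 matched the GRCm38.p6 gene table by Entrez ID, and the brightest was kept for each of 19938 genes, however dim. Replicate numbers follow the order of deposition. Differences between the strains were fitted by lmFit and eBayes (limma 3.58.1, R 4.3.3) and adjusted by Benjamini-Hochberg across all genes, in a script checked on simulated data.

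Array values are given for members past the threshold, and means or differences for the others inside the region and for the 3 largest each way outside it. The rest are described by groups whose starts lie within 1 Mb of the next member. Members and lists were chosen with earlier results of these data known. Motifs, promoters shown and further members named were chosen after the values were seen. Alternatives were brightness filters, array centring, mean probe sets, another variance model, array weights, an acinar covariate, left-out arrays and other region limits. Whether strain variants lie under the probes was not tested. The number of arrays limits the precision.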

Additional observations from a re-analysis of the deposited data

Results flagged for a closer look

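Single arrays stood far from the other 4 of their strain in 2 of the 30 sets of 5 values behind the members past the threshold, where chance marks about 1 in 20. Zfp78 measured 7.28 on NZO replicate 1, and the nearest other NZO array was at 7.07. Zfp974 measured 6.89 on NZO replicate 1, and the nearest other NZO array was at 6.65.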

How the results depend on the processing

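Over 260 combinations of a member past the threshold and an alternative, 188 kept direction and call, 72 kept the direction but lost the call, and none reversed. The brightness filters, mean probe sets and the other variance model left these differences unchanged, so they could not reverse one. The fits with 1 array left out share most of their arrays. The lack of reversals therefore says little. The 4 members lower inside the region became 7 with array weights, 1 among genes at or above median brightness, 2 with the region at 31 to 45 Mb, 0 with the acinar covariate (also 0 at an unadjusted p below 0.05 by limma) and 0 without NZO replicates 4 and 5 (6 at an unadjusted p), and 1 to 7 with 1 array left out. For the counts at an unadjusted p, no share of all genes in the same fit is given. None were higher inside, and 1 was with the region at 29 to 47 Mb. The 3 higher outside became 1 with the covariate, 1 without NZO replicates 4 and 5, and 2 to 3 with 1 array left out. The 8 lower outside became 21 with array weights, 5 above median brightness, 1 with the covariate, 3 without NZO replicates 4 and 5, and 5 to 15 with 1 array left out. Over all genes, 2010 passed, against 4125 with array weights, 208 with the covariate and 1105 without NZO replicates 4 and 5. The share of all genes that were lower was 11.6% with array weights and 8.08% at or above median brightness, against 4.61% without either. The brightness filter tested fewer genes and removed Zfp78, Zfp108, Zfp607a, Zfp974, Zfp940, Zfp14, Zfp82 and Zfp658. Otherwise the cause was not tested. No paired analysis was possible because the labels give no replicate numbers shared by the strains. Dim members such as Zfp82 and Zfp114 have no detection call.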
